A study of Mus musculus with 24 samples.

Results

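The respiratory chain of the mouse kidney was described from 95 of the 19399 genes in a table of normalized read counts, namely 82 nuclear and 13 mitochondrial genes. The members were the protein-coding genes whose names mark them as subunits of complex I (Nduf genes and mt-Nd genes), complex II (Sdha to Sdhd), complex III (Uqcr genes and mt-Cytb), complex IV (Cox4 to Cox8 genes and mt-Co genes) and the ATP synthase, also called complex V (Atp5 genes and mt-Atp genes). Complex I had 37 nuclear and 7 mitochondrial members, complex II 4 nuclear ones, complex III 8 and 1, complex IV 16 and 3, and complex V 17 and 2. All 95 passed the filter on low values, which asked for 10 or more in 5 libraries, and were tested. The names also take in Atp5s and Atp5sl, which are not structural subunits of the ATP synthase (Atp5sl is known as an assembly factor of complex I), and Ndufa4, which is now placed in complex IV. No measured values of Cox7b2 or Cox8c were used here.

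The respiratory chain sits in the inner mitochondrial membrane, where complexes I and II pass electrons from NADH and succinate to ubiquinone, complex III hands them to cytochrome c, and complex IV gives them to oxygen. Complexes I, III and IV pump protons, and the ATP synthase makes ATP as the protons flow back. Complex II is wholly nuclear, whereas the other complexes join subunits made from nuclear genes with core subunits made from the mitochondrial genome, which is read from both strands as long transcripts and cut into separate mRNAs. The kidney, above all its proximal tubule and thick ascending limb, is rich in mitochondria, which power the sodium pumps behind reabsorption.

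The libraries came from kidneys of C57BL/6J mice, an inbred strain, aged 10 weeks, with 1 library per mouse, and the question was how mild dehydration changes the kidney in each sex. The groups, with no transgene or deletion named for any, were 7 water-deprived males, 6 males with free access to water, 5 water-deprived females and 6 females with free access to water. Water was withheld for 9 to 11 h. Kidneys were collected around midnight (give or take 1 h), when mice had been active for 6 h, though the label's own hour for removing the water, 3 pm, does not wholly match these times. Deprived female 5 is named as dehydrated in its title and as having free water in its treatment label, and was kept with the deprived females. Whole tissue was sequenced after poly A selection, so fewer cells of a type and less RNA per cell cannot be told apart.

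Libraries held 14411843 to 29398960 reads. In 4 of them the unnamed gene ENSMUSG00000119584 took over 1% of reads, with 1.29% in deprived male 6, 2.86% in deprived male 7, 1.07% in deprived female 1 and 1.90% in watered female 6, against at most 0.850% in the other 20. In the same 4 libraries short transcripts were high. Log2 differences were taken from each gene's median over the libraries of the same group among the other 20. This was done over the 777 other protein-coding genes with a principal transcript under 1000 bases. Their median difference was 0.53 in deprived male 6, 0.86 in deprived male 7, 0.37 in deprived female 1 and 0.26 in watered female 6. Over the 13706 longer ones it lay between -0.04 and -0.03. Counts of called members are given with and without these 4 libraries. Kidney markers were present in every library: the 14 proximal tubule markers summed to 489518 to 580571 in males and 298580 to 390048 in females. Of the fat and striated muscle markers, Lep, Ucp1, Adipoq, Acta1, Myh1 and Myh4 were at 0 in at least 1 library. Fat was not absent from all kidneys: the 6 fat markers with values summed to 11.1 to 947 in watered males and 34.4 to 775 in watered females. The fat marker Elovl3 and the muscle markers Ckm, Mb and Tnnt3 had no values.

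Part of the mitochondrial genome has a copy on chromosome 1 of the nuclear genome, and this copy touches 7 of the 13 mitochondrial members. In the GRCm38 build (mm10), 7 annotated genes on the minus strand of chr1:24611535-24616197 repeat mt-Nd4, mt-Nd4l, mt-Nd3, mt-Co3, mt-Atp6, mt-Co2 and mt-Co1 in whole or in part. Over 681 bases, mt-Co2 and its copy Gm28661 were the same at every base, and so were mt-Co3, mt-Atp6, mt-Nd4l and the 876 copied bases of mt-Nd4. The copy of mt-Nd3 differed by T3C, and the 492 copied bases of mt-Co1 differed from the gene at 6 positions, all at the start of the copy: T1056A, C1057T, A1059G, A1060G, C1062A and A1066T (positions from 1 at the first base of the gene, the gene's base first). The stretches shown are a run with no difference and the runs that hold the differences. Capitals mark the bases that differ.
mt-Co2, bases 313 to 372 of the gene: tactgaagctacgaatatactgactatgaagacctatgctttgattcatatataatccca
Gm28661, bases 313 to 372 of the copy: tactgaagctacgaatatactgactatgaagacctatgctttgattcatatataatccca
mt-Nd3, bases 1 to 60 of the gene: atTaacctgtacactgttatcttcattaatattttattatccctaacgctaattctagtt
Gm28438, bases 1 to 60 of the copy: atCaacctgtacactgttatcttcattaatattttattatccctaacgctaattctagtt
mt-Co1, bases 1054 to 1113 of the gene: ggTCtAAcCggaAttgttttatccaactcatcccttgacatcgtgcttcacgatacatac
Gm29216, bases 1 to 60 of the copy: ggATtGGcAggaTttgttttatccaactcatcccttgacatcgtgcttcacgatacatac

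Some of the copies had counts close to those of their gene. Gm28661 had a median of 0.979 times the count of mt-Co2 over the libraries, Gm10925 0.980 times that of mt-Atp6, Gm28437 0.828 times that of mt-Co3 and Gm10222 0.674 times that of mt-Nd4l. The ratio was 0.226 for mt-Nd3, 0.009 for mt-Nd4 and 0.0011 for mt-Co1. The share of 50-base windows found in another annotated transcript was 100% in mt-Co2, 99.9% in mt-Co3, 99.5% in mt-Atp6, 98.8% in mt-Nd4l, 98.0% in mt-Nd3, 62.2% in mt-Nd4 and 51.1% in mt-Co1. Outside the chromosome 1 copy, the share was 8.19% in mt-Nd2 and 7.61% in mt-Nd5. No window of mt-Nd1, mt-Nd6, mt-Cytb or mt-Atp8 was shared, but mt-Atp8 overlaps mt-Atp6 by 43 bases. The 6 genes mt-Co2, mt-Co3, mt-Atp6, mt-Atp8, mt-Nd4l and mt-Nd3 had a mean count under 10000 and are called the low mitochondrial members here. The other 7, mt-Nd1, mt-Nd2, mt-Nd4, mt-Nd5, mt-Nd6, mt-Cytb and mt-Co1, are called the high ones. Values of the low members are uncertain as measures of the mitochondrial transcript. Among nuclear members, over 50% of windows were shared in Atp5g2 (87.4%), Atp5l (84.8%), Cox7c (53.0%) and Atp5o (50.3%), for example with Gm10175 in the case of Atp5g2, and their values are uncertain in the same way. Whether counting used strand is not given in the sources used here. The annotated mt-Nd5 and mt-Nd6 overlap by 14 bases on opposite strands and may share reads, to an extent that was not tested. If strand was not used, reads of the opposite strand over the whole of mt-Nd6 would be counted for it too. Values of mt-Nd6 are therefore uncertain as measures of its own transcript.

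Promoters of the nuclear members held motifs known from genes of the respiratory chain. RefSeq's table of promoters for GRCm38.p6, with 250 bases before and 50 after each start, had an entry for 65 of the 82. On either strand, the NRF1 motif GCGCATGCG was in 8 of these 65 (12.3%), against 1.81% of all 27025 promoters. The YY1 motif AAGATGGCG was in 6 (9.23%), against 1.49%. The ERR motif TCAAGGTCA was in Atp5g3 and Sdhd (3.08%, against 0.407%), and the ETS motif CCGGAAGT in 5 (7.69%, against 4.00%). The common CCAAT was in 28 (43.1%, against 37.9%) and TATAAA in 6 (9.23%, against 14.2%). A match is a run of letters and not a measured binding site, and no motif search was set against the counts. The YY1 matches all read in the direction of the gene and began 23 to 36 bases after its start. Shown are stretches with the NRF1 and YY1 motif in capitals, CGCATGCGC being the NRF1 motif read on the other strand, from members of complexes I, III and V.
Ndufa8, complex I, chr2:36049329-36049357, minus strand: tcgctggagaCGCATGCGCagatggtacc
Uqcrc1, complex III, chr9:108936668-108936696, plus strand: actccgctctGCGCATGCGcagcgcggct
Uqcr11, complex III, chr10:80406808-80406836, minus strand: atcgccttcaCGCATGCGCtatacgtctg
Atp5k, complex V, chr5:108434431-108434459, minus strand: tttcactgcgGCGCATGCGcctttctggc
Ndufs7, complex I, chr10:80249463-80249491, plus strand: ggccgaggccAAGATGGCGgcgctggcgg
Ndufa9, complex I, chr6:126849097-126849125, minus strand: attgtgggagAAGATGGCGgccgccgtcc
Atp5j2, complex V, chr5:145191500-145191528, minus strand: ccaggacttcAAGATGGCGtcactcggtg

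Mitochondrial transcripts far exceeded nuclear ones of the same complex, apart from the low members. As mean normalized count per kb of the principal annotated transcript, the high mitochondrial members ran from 85441 for mt-Nd6 to 433263 for mt-Co1, the catalytic core of complex IV. The highest nuclear member, Atp5b, which encodes the catalytic beta subunit of the ATP synthase, had 34786 per kb. The other leading nuclear genes were Atp5a1 at 19840, Cox4i1 at 19604, Cox6a1 at 19089 and Atp5g3 at 16762 per kb. Nuclear medians per kb were 2550 in complex I, 5547 in complex II, 5731 in complex III, 5516 in complex IV and 4868 in complex V. Complex III was the most even, its 8 nuclear members lying between 2700 for Uqcrq and 7185 for Uqcr10. Complex IV was the widest, from 19.4 for Cox6a2 to 19604 for Cox4i1. The level of Ndufb2, 64.9 per kb, rests on a principal transcript of 4371 bases.

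**Figure D1:**
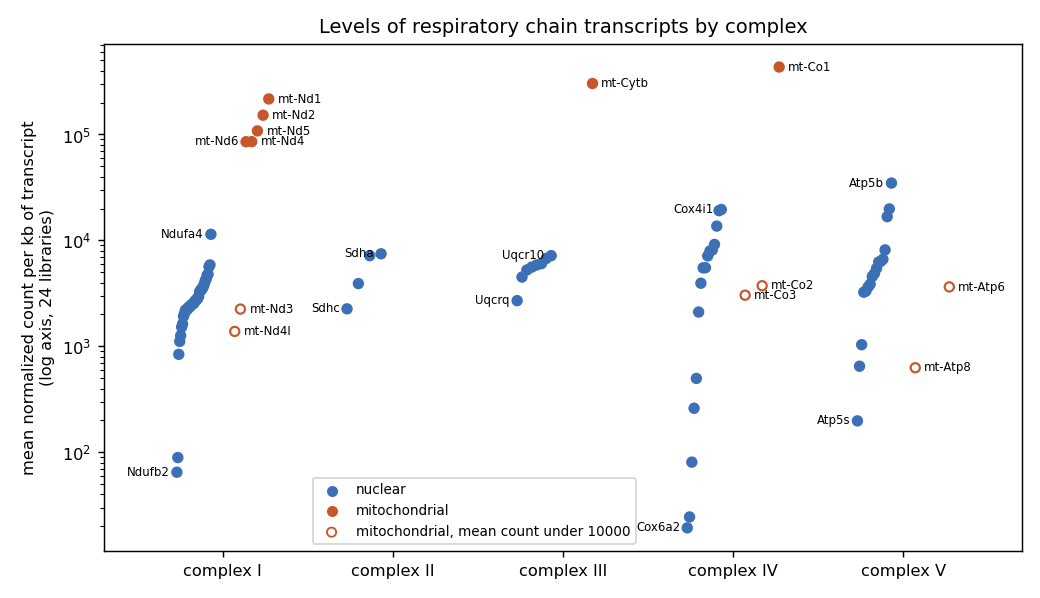
Mean normalized count per kb of principal transcript over 24 libraries (vertical, log axis) for each of the 95 members, by complex (horizontal), with nuclear genes in blue and mitochondrial genes in orange. Open orange circles, the 6 mitochondrial genes with a mean count under 10000, lie among the nuclear genes, and the 7 filled ones, from 85441 to 433263 per kb, above all of them.

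Several complex IV subunits have a second gene that is known from muscle, heart, lung or testis, and in kidney the ubiquitous gene made up most of each pair. Per length, Cox4i2 was 0.0965%, 0.125%, 0.129% and 0.151% of the sum of Cox4i1 and Cox4i2 in deprived males, watered males, deprived females and watered females. Cox6a2, the muscle and heart form, was at most 0.226% of its pair with Cox6a1 in any library. Cox8b was at most 1.78% of its pair with Cox8a. The second genes with the highest shares differed by sex. Cox6b2, known as the testis form, made up 2.44% ± 0.35 of its pair with Cox6b1 in deprived males and 3.97% ± 0.64 in deprived females (SD, n = 7 and 5). In watered mice the share was 2.37% ± 0.32 in males and 4.18% ± 0.55 in females (SD, n = 6 each). Every male library lay below every female library, at 1.94% to 2.95% against 3.35% to 5.14%. Cox7a1, the muscle and heart form, was 6.63% ± 0.51 of its pair with Cox7a2 in deprived males and 9.79% ± 0.83 in deprived females. It was 7.36% ± 0.41 of the pair in watered males and 10.3% ± 1.5 in watered females. The sexes did not overlap here either, with 5.80% to 7.92% in males and 8.22% to 12.4% in females. Lack of overlap was common: by their own values, 22.4% of all genes tested kept watered males and females apart, and 15.5% deprived ones. Striated muscle markers summed to 13.7 to 151 in males and 270 to 388 in females. Only 5 of the 8 had values, and Acta1, Myh1 and Myh4 were at 0 in some libraries, so these sums rest on few genes. The part of muscle and of fat in these shares was not tested.

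Reads on the 13 mitochondrial genes made up 8.43% ± 0.89 of a library in deprived males and 8.24% ± 0.46 in watered males (SD, n = 7 and 6). They made up 8.13% ± 0.16 in deprived females and 8.82% ± 0.56 in watered females (SD, n = 5 and 6). No deprived female exceeded 8.29%, while no watered female was below 8.34%, so these groups did not overlap on this share, on which no test was run. With the 4 libraries left out the means were 8.11% ± 0.19 in deprived males, 8.24% ± 0.46 in watered males, 8.13% ± 0.19 in deprived females and 8.61% ± 0.27 in watered females. The 82 nuclear genes took 2.14% ± 0.31 of reads in deprived males, 2.01% ± 0.06 in watered males, 2.22% ± 0.21 in deprived females and 2.19% ± 0.11 in watered females. The highest nuclear shares were those of deprived male 7 (2.78%) and deprived female 1 (2.58%), both among the 4 libraries.

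**Figure D2:**
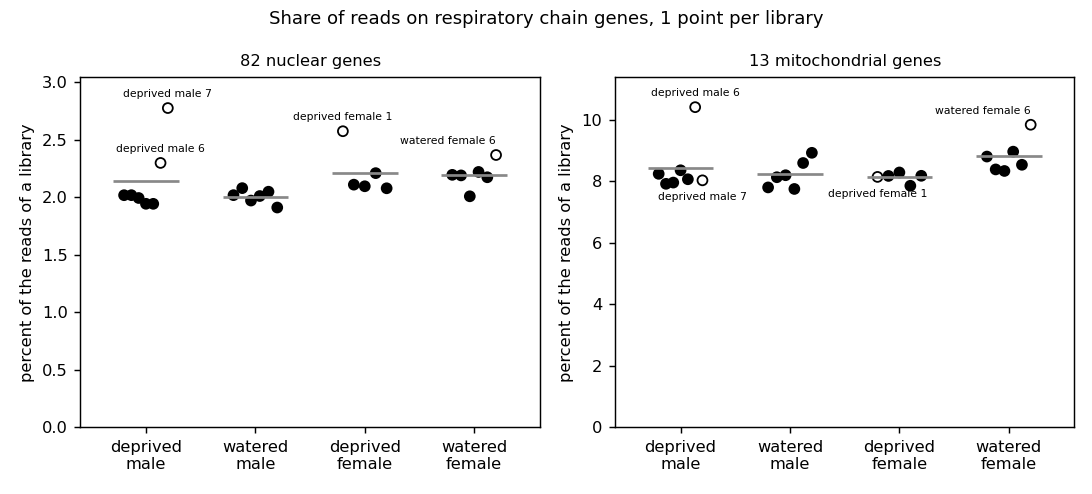
Percent of the reads of a library on the 82 nuclear genes (left) and the 13 mitochondrial genes (right), 1 point per library, by group (horizontal); the line is the group mean and open points are the 4 libraries in which the unnamed gene took over 1% of reads. The 5 deprived females lie at or below 8.29% for the mitochondrial genes and the 6 watered females at or above 8.34%.

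The 4 libraries carried high values of most nuclear members. For the 49 nuclear members with a principal transcript under 1000 bases, log2 differences were again taken from the same group among the other 20. Their median was 0.53 in deprived male 6, 1.1 in deprived male 7, 0.42 in deprived female 1 and 0.36 in watered female 6. In the other 20 libraries that median ran from -0.21 to 0.10. For the 33 longer members it was 0.33, 0.74, 0.34 and 0.13 in the same 4 libraries, so the long ones were raised too. Ndufb9, an accessory subunit of complex I, had 5527 in deprived male 7 and 2793 in deprived male 6, against 1209 to 1320 in the other 5 deprived males. The mitochondrial genes did not follow as a block. Deprived male 7 had 330448 for mt-Nd1 and 215007 for mt-Nd4, second in its group only to deprived male 6, while its mt-Nd5, at 112899, was the lowest of the group. Outside these 4 libraries, the median coefficient of variation within groups was 5.66% for nuclear members, 4.41% for the high mitochondrial members and 12.1% for the low ones, against 9.21% for all 17592 genes tested.

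**Figure D3:**
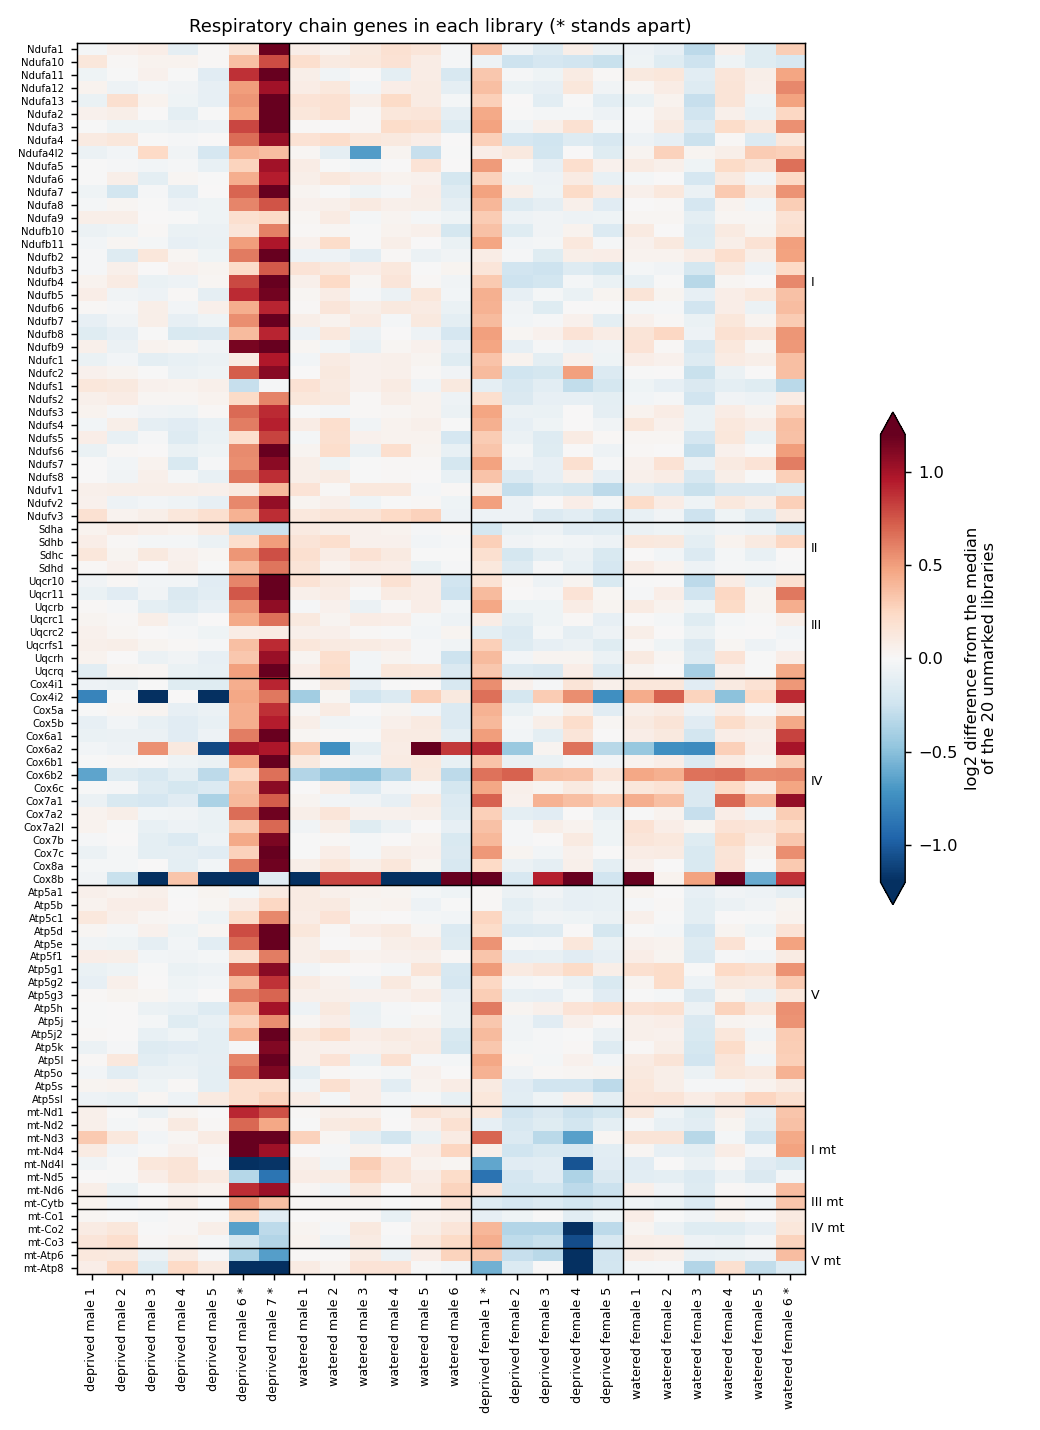
Log2 difference of each member (rows, nuclear genes by complex and then mitochondrial genes) from its median over the 20 unmarked libraries, in each of the 24 libraries (columns, by group); red is above that median and blue below, with the colour scale ending at 1.2 either way. Deprived males 6 and 7, deprived female 1 and watered female 6, marked with an asterisk, are red over most nuclear rows, and deprived female 4 is blue over mt-Co2, mt-Co3, mt-Atp6, mt-Atp8, mt-Nd3 and mt-Nd4l.

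In females, no respiratory chain gene passed the test for water deprivation when all libraries were used. Of 95 members, 0 were called by limma at an adjusted p below 0.05, against 0.79% of all genes tested. At an unadjusted p under 0.05 there were 4, and edgeR and DESeq2 called 0. The fitted change was negative for all 13 mitochondrial members, with a median of -0.21 on the log2 scale, and for 66 of 82 nuclear members, with a median of -0.03, beside -0.02 for all genes. The smallest adjusted p, 0.261, was that of Atp5sl.

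Without the 4 libraries, 4 members were lower in deprived females by limma's test and 0 were higher, where 1.93% of all genes tested were called lower (4.21% of members). They were Atp5sl, Atp5s, mt-Nd1 and mt-Nd6. mt-Nd1, a core membrane subunit of complex I, had values of 211546, 166268, 171821, 162656 and 168302 in deprived females, against a lowest, median and highest value of 175777, 195922 and 244150 in watered females. Apart from deprived female 1, every deprived female was below every watered female. Its log2 change was -0.20 without the 4 libraries (limma, adjusted p = 0.0104) and -0.19 with them (adjusted p = 0.794). mt-Nd6, the only one of the 13 mitochondrial members on the minus strand, had 45876, 35250, 35090, 32998 and 34249 in deprived females, against 36865, 40963 and 53066 as the lowest, median and highest in watered females. Here too only deprived female 1 reached the range of the watered females, and the change without the 4 libraries was -0.22 (limma, adjusted p = 0.00806). Whether reads of the opposite strand were part of the mt-Nd6 values was not tested. Atp5sl had 1632, 1368, 1440, 1555 and 1368 in deprived females, against 1585, 1651 and 1776 as the lowest, median and highest in watered females. Atp5s had 338, 286, 268, 269 and 253 in deprived females, against 311, 327 and 345 in watered females in the same order. In both genes deprived female 1 was the only deprived female inside the range of the watered ones. Their changes without the 4 libraries were -0.21 (limma, adjusted p = 0.0118) and -0.27 (adjusted p = 0.0224).

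The most negative fitted changes in females were those of low mitochondrial members when deprived female 4 was included, and that mouse had the lowest value of the deprived females in all 6 of them. Among the 6, mt-Nd3 had a change of only -0.11 with all libraries, against -0.24 for mt-Nd5, a high member. The median change of the 6 was -0.35 with all libraries, against -0.19 for the 7 high members, and -0.13 against -0.17 without deprived female 4. It was -0.49 without the 4 libraries, against -0.12 for the high ones, and -0.18 against -0.11 when deprived female 4 was left out as well, a setting chosen after the data were seen. In that last setting 7 members were lower by limma's test (all genes 1.52%), namely the 4 above with mt-Co2, mt-Co3 and mt-Atp6. mt-Co2 had 3541, 2105, 2103, 941 and 2170 in deprived females, against 2433, 2539 and 2956 as the lowest, median and highest in watered females. mt-Atp8 had 94.8, 126, 143, 24.9 and 121 in deprived females, against 111, 133 and 163 in watered females. In deprived female 4 mt-Co3 was at 1153 and mt-Atp6 at 1015, against at least 1950 and 2049 in the other 4, while its mt-Co1 (612393) and mt-Cytb (295721) lay close to theirs. mt-Nd3 had 1099, 605, 540, 432 and 687 in deprived females, against 539, 711 and 929 as the lowest, median and highest in watered females, and mt-Nd4l had 291, 408, 411, 218 and 407 in deprived females, against 394, 418 and 452 in watered females. With the 4 libraries left out, the smallest adjusted p among these 6 was 0.055, for mt-Co3 (limma, change -0.45), which became 0.0135 (change -0.25) without deprived female 4 too. No nuclear member of complexes II, III or IV was called in females under either set of libraries, and the fitted medians of these complexes lay between -0.09 and -0.01. Of the 14 proximal tubule markers 2 were called lower in deprived females and 0 higher, against 0.341% and 0.449% of all genes. Their sum was 298580 to 360575 in deprived females and 355125 to 390048 in watered females. Principal cell markers summed to 23833 to 27588 in deprived females and 17482 to 23567 in watered females. This was not particular to females, as the sums were 20748 to 28456 in deprived males and 15296 to 17105 in watered males. Endothelial markers summed to 13839 to 15745 in deprived females and 11865 to 13490 in watered females, without overlap. Of these 8 markers 0 were called with all libraries, and 5 were higher without the 4 libraries, against 2.28% of all genes. Stroma and smooth muscle markers summed to 6161 to 8224 in deprived females and 4697 to 6484 in watered females, with 2 of 8 called higher (all genes 0.449%). Without the 4 libraries these sums were 7045 to 8224 and 5254 to 6484, with 4 called higher (all genes 2.28%). Podocyte markers, which overlapped with all libraries, summed to 9973 to 10419 in deprived females and 9565 to 9770 in watered females without the 4, with 0 of 6 called. The part of these markers in the mitochondrial values was not tested.

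In males, the call was again 0 of 95 members, against 0.227% of all genes, with 3 at an unadjusted p under 0.05 and 0 by edgeR and DESeq2. The 82 nuclear members had a median change of 0.16 with all libraries, positive in 78 of them, whereas without the 4 libraries the median was -0.05 and 12 were positive. Leaving out deprived male 7 alone brought it to 0.02. The sign of the nuclear members in males thus rested on deprived males 6 and 7. In the fit without the 4 libraries, 0 members were called, against 0.807% of all genes, and 4 had an unadjusted p under 0.05. The 13 mitochondrial members had a median change of 0.00 with all libraries and -0.02 without the 4. mt-Nd1 had 184858, 199229 and 363103 as the lowest, median and highest in deprived males, against 193390, 202041 and 215949 in watered males. Deprived males 6 and 7 held the 2 highest values, and the other 5 lay within or just below the watered range.

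Averaged over the sexes, 0 of 95 members were called, against 1.64% of all genes, with 4 at an unadjusted p under 0.05 and 0 by edgeR and DESeq2. Leaving out the 4 libraries gave 6 lower (6.32%) and 0 higher, where 2.93% of all genes were called lower: Atp5sl, Atp5s, mt-Nd1 and mt-Nd6 again, with Ndufb3 and Ndufs4, accessory subunits of complex I. The changes were small, that of Atp5sl being -0.11 and that of Atp5s -0.16 (limma, adjusted p = 0.0365 and 0.0332). Ndufs4, which is needed for the last steps of complex I assembly, had 1223 to 1311 in the 4 deprived females kept and 1236 to 1438 in the 5 watered females kept, and 1189 to 1370 against 1271 to 1505 in males, so the groups overlapped. In that fit 81 of 82 nuclear and 13 of 13 mitochondrial changes were negative, with medians of -0.05 and -0.13, beside -0.01 for all genes. With all libraries, 73 nuclear changes were positive.

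The response of males was set against that of females directly. Of the 95 members 0 differed (limma, adjusted p below 0.05), against 0% of all genes tested, with 4 at an unadjusted p under 0.05 and 0 by edgeR and DESeq2. In the other fit, without the 4 libraries, 0 members differed, against 0.0512% of all genes, with 7 at an unadjusted p under 0.05. The male minus female difference of the mitochondrial members had a median of 0.24 with all libraries and 0.17 without the 4, positive in 11 and 13 of 13. The call of mt-Nd1 and mt-Nd6 in females and not in males is therefore not a shown difference between the sexes: the differences were 0.14 and 0.16 without the 4 libraries (limma, adjusted p = 0.508 and 0.452). With all libraries, the deprived and watered groups kept apart in 0 of the 95 members in either sex, against 2.48% of all genes tested in females and 0.529% in males.

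**Figure D4:**
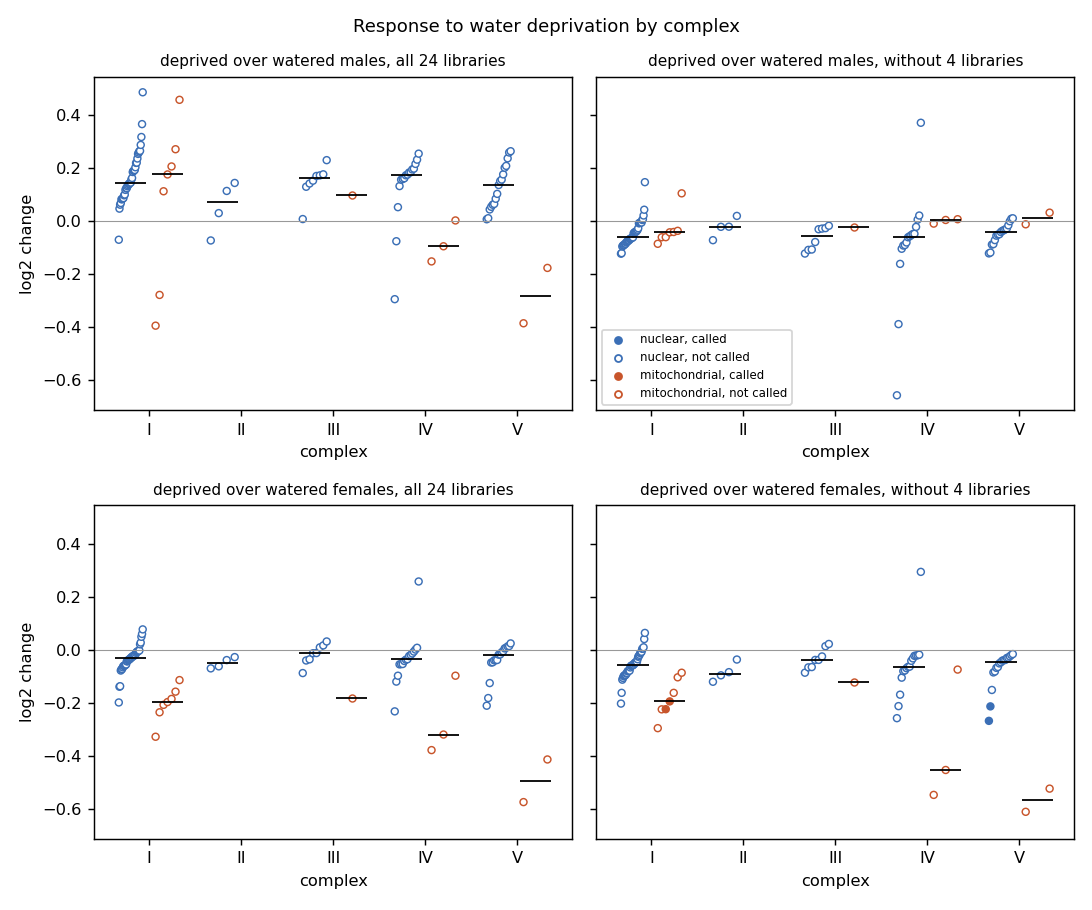
Fitted log2 change of each member (vertical) by complex (horizontal) for deprived over watered males (top) and deprived over watered females (bottom), with all 24 libraries (left) and without the 4 that stand apart (right). Bars are medians, blue is nuclear, orange is mitochondrial, and filled points passed an adjusted p below 0.05, which 0 do on the left, 0 on the upper right and 4 on the lower right. The nuclear points of males lie mostly above 0 on the left and mostly below it on the right.

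Between watered males and watered females, 3 members of complex I were higher in males and 4 members were lower, all of them nuclear. The share called higher was 3.16%, against 15.9% of all genes tested, and the share called lower 4.21%, against 14.5%. Both shares lay below those of all genes. Ndufs1 and Ndufv1, whose proteins carry the iron-sulfur clusters and the flavin through which electrons from NADH enter complex I, were among the 3. Ndufs1, on the minus strand of chr1:63143596-63176833 (GRCm38), had 6323, 7004 and 7373 as the lowest, median and highest value in watered males, against 5203, 5949 and 6293 in watered females. Ndufv1, on the minus strand of chr19:4007384-4012806, had 7176, 7640 and 8127 in watered males, against 6031, 6464 and 6733 in watered females. In both genes every watered male was above every watered female, which held for 5 of the 95 members (13.3% of all genes), while 2 lay wholly below (9.07%). The log2 differences were 0.24 ± 0.06 and 0.25 ± 0.07 (SE, limma, adjusted p = 0.00443 and 0.00483). Ndufa10, an accessory subunit of the membrane arm, was the last of the 3, with 4314, 4725 and 5006 in watered males against 3666, 3935 and 4213 in watered females, again without overlap and with a difference of 0.25 ± 0.09 (SE, limma, adjusted p = 0.0393).

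The members lower in males were the second genes of 3 subunits and Atp5sl. Cox6b2, on the minus strand of chr7:4751792-4753094, had 94.8, 105 and 144 as the lowest, median and highest value in watered males, against 179, 197 and 211 in watered females. The groups kept apart, with a log2 difference of -0.86 ± 0.15 (SE, limma, adjusted p = 6.73e-05). Cox7a1, on the plus strand of chr7:30184144-30186078, had 148, 162 and 178 in watered males, against 147, 223 and 347 in watered females, so that the groups overlapped in watered female 3 alone, and the difference was -0.50 ± 0.17 (limma, adjusted p = 0.0270). Ndufa4l2, a relative of Ndufa4 known as a target of hypoxia-inducible factor, had 50.6, 77.8 and 83.0 in watered males against 82.8, 91.8 and 100.4 in watered females, with a difference of -0.34 ± 0.13 (limma, adjusted p = 0.0472). Atp5sl differed by -0.16 ± 0.06 (limma, adjusted p = 0.0487). The last 2 lie at the edge of the threshold, and their calls were lost in 16 and 17 of 38 alternatives. The 7 calls became 4 without watered female 2, 4 or 5 or without watered male 4 or 5, 3 without watered female 6 and 11 without deprived male 7. Striated muscle markers differed by sex as well: their sum was 53.0 to 151 in watered males and 270 to 388 in watered females. Of the 3 tested 1 was called lower (all genes 14.5%), and Acta1, Myh1 and Myh4 were at 0 in some libraries. The part of the muscle markers and of the fat markers in the values of Cox6b2 and Cox7a1 was not tested.

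Cox8b, the other muscle form, had the most negative fitted difference, -2.30 ± 0.94, but was not called (limma, adjusted p = 0.0674). Its values ran from 0 to 57.2 in watered males and from 13 to 91.6 in watered females, and the part of muscle and of fat in them was not tested. Sdha, the flavin-bearing catalytic subunit of complex II, had 22051 to 23975 in watered males against 19605 to 21573 in watered females, without overlap, and was not called with all libraries (difference 0.13 ± 0.06, limma, adjusted p = 0.120).

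With the 4 libraries left out, more members differed between the sexes. In watered mice 16 were higher in males (16.8% of members, against 22.1% of all genes) and 9 lower (9.47%, against 20%). Complex I by name had 12 of the 16: mt-Nd2, mt-Nd5 and 10 nuclear members, among them Ndufa4, now placed in complex IV. Complex II had Sdha and Sdhc, and complex III Uqcrfs1, the Rieske iron-sulfur protein, and mt-Cytb. By name, nuclear complexes IV and V gave 0 higher and 7 of the 9 lower. These were Cox6b2, Cox7a1, Cox6c, Cox7a2l, Atp5h, Atp5g1 and Atp5sl, the last not a structural subunit of complex V. The other two were Ndufa4l2 and Ndufb8. mt-Nd5 had 220583, 227189 and 247525 as the lowest, median and highest in watered males, against 184697, 190410 and 202679 in watered females. These did not overlap, and the difference was 0.27 with all libraries (adjusted p = 0.137) and 0.28 without the 4 (limma, adjusted p = 1.14e-06).

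In deprived mice, 16 members were higher in males (16.8%, against 17.5% of all genes) and 1 was lower (1.05%, against 15.6%). The higher ones were 5 of the 13 mitochondrial members, mt-Nd1, mt-Nd2, mt-Nd4, mt-Nd6 and mt-Cytb (38.5%), and 11 of the 82 nuclear ones (13.4%). The nuclear ones were Ndufs1, Ndufv1, Ndufv3, Ndufa10, Ndufb3 and Ndufa4, with Sdhc and Sdhd, the membrane anchors of complex II, Uqcrc2, a core protein of complex III, Atp5b and Atp5s. Cox6b2 was the lower one, with 85.2, 119 and 211 as the lowest, median and highest in deprived males against 209, 217, 169, 169 and 147 in deprived females, and a log2 difference of -0.51 ± 0.15 (SE, limma, adjusted p = 0.0119). Only deprived males 6 and 7 reached the range of the deprived females. The 17 calls became 8 without deprived female 2 or 4, 10 without deprived female 3, 9 without deprived female 5, 11 without deprived male 6 and 10 with deprived female 5 counted as watered.

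mt-Cytb, the cytochrome b of complex III, had 335619, 354312 and 500960 as the lowest, median and highest in deprived males, against 307849, 298286, 307361, 295721 and 306312 in deprived females. mt-Nd2, another core membrane subunit of complex I, had 148898, 158134 and 244482 in deprived males, against 141625, 132734, 137213, 129864 and 139866 in deprived females. In both genes every deprived male was above every deprived female. The differences were 0.32 ± 0.09 and 0.34 ± 0.10 (SE, limma, adjusted p = 0.00504 and 0.00949). In the fit without the 4 libraries they were 0.21 and 0.20, and that of mt-Nd4 was 0.21 against 0.47 with them. Ndufa10 and Ndufv3 had 4406 to 7510 and 2326 to 4169 in deprived males, against 3623 to 4184 and 1938 to 2167 in deprived females. These were the 4 of 95 members whose groups kept apart, all with males above, against 9.06% of all genes with males above and 6.39% with males below.

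Leaving out the 4 libraries gave 27 members higher in deprived males (28.4%, against 21.8% of all genes) and 9 lower (9.47%, against 19.1%). Of the 13 mitochondrial members 11 were higher (84.6%), the 2 exceptions being mt-Co1 and mt-Atp8. The median difference over the 13 was 0.34 with all libraries and 0.29 without the 4, positive in 13 of 13 each time, beside -0.02 for all genes. It was 0.22 without deprived female 4, where the low members had 0.04 and the high ones 0.33, and 0.23 without all 5 libraries. Over the 82 nuclear members it was 0.15 with all libraries, 0.03 without deprived male 7 and 0.02 without the 4. Nuclear complex IV by name had the lowest median, 0.04 with all libraries and -0.10 without the 4. In the latter fit Cox4i1, Cox5b, Cox6c, Cox6b2 and Cox7a1 were lower in males and 0 of its 16 members higher. Ndufa4, counted with complex I by its name, was higher there.

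**Figure D5:**
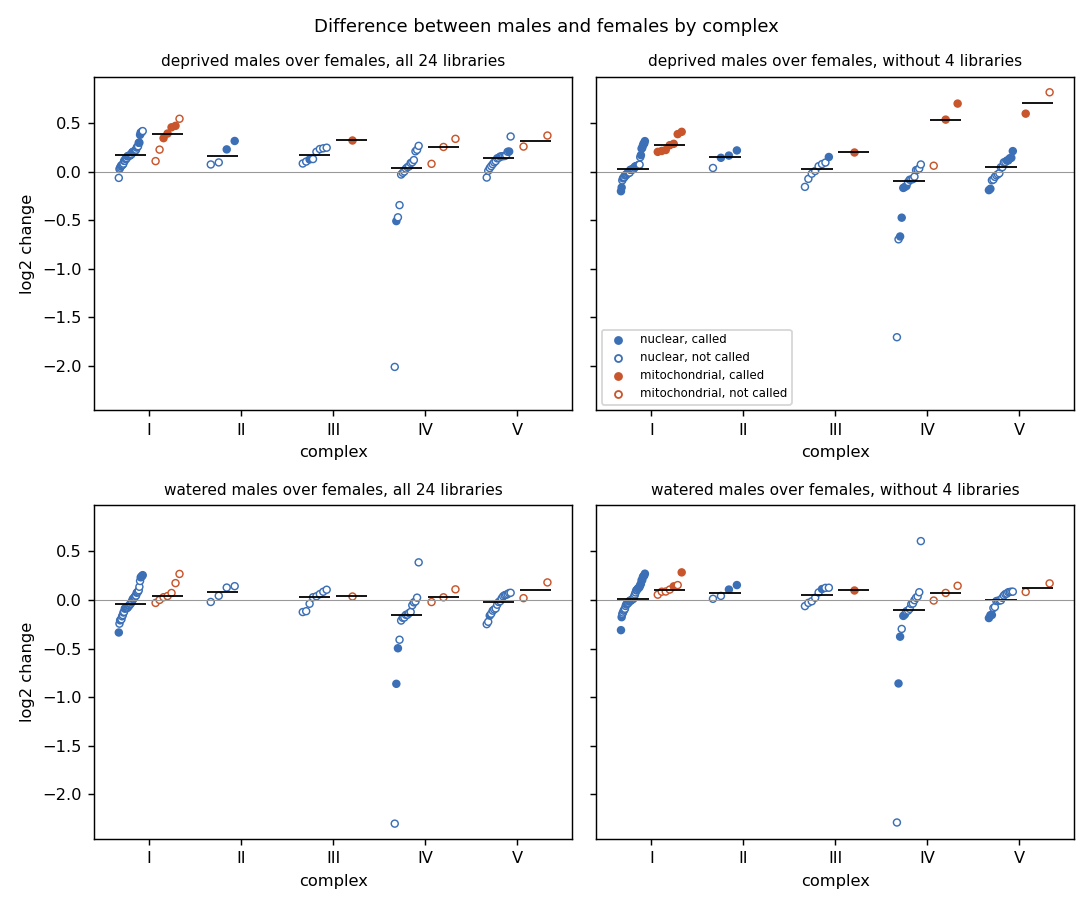
Fitted log2 difference of each member (vertical) by complex (horizontal) for deprived males over deprived females (top) and watered males over watered females (bottom), with all 24 libraries (left) and without the 4 that stand apart (right). Bars are medians, blue is nuclear, orange is mitochondrial, and filled points passed an adjusted p below 0.05. The 13 mitochondrial points of deprived mice lie above 0 in both upper panels, and the lowest points of complex IV are Cox8b, Cox6b2, Cox7a1 and Cox4i2.

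The direction of the sex differences depended on how libraries were scaled. With the total of nuclear genes in place of the authors' size factors, the median of all genes moved by -0.15 in watered and -0.20 in deprived mice. Under that scaling 0 members were higher and 19 lower in watered males, and 1 higher and 4 lower in deprived males. Of all genes 1505 were then higher and 5177 lower in watered males, in place of 2803 and 2558, and 1352 higher and 6256 lower in deprived males, in place of 3082 and 2748. The median of the mitochondrial members in deprived males was then 0.13, beside -0.21 for all genes. A new scaling moves all genes of a library nearly alike, so the gap between these medians could hardly change. Values of the proximal tubule markers moved with sex: their sums did not overlap between males and females. Of the 14 markers 6 were higher and 2 lower in watered males, against 15.9% and 14.5% of all genes. Thick ascending limb markers summed to 140329 to 153345 in watered males and 156761 to 196419 in watered females. With the mean log2 level of the proximal tubule markers in the model, 78 members were called between watered mice and 81 between deprived mice. The share of all genes called in that model is not given here, so these counts cannot be read as particular to the members. Proximal tubule content and sex cannot be told apart here.

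Genes that work beside the members were not called for water deprivation with all libraries. In the male, the female and the mean deprivation contrast limma called 0 in each of 6 lists: 23 tested chain subunits and carriers outside the naming rule, 47 assembly factors, 31 genes of mitochondrial transcription and RNA processing, 17 regulators of mitochondrial biogenesis, 75 mitochondrial ribosomal proteins and 81 cytosolic ribosomal proteins. At an unadjusted p under 0.05 each list had 0 to 5 members per contrast. DESeq2 called 1 assembly factor higher and 1 lower in the mean contrast (4.26% of the list, against 3.19% of all genes) and 1 gene of mitochondrial transcription lower in females (3.23%, against 2.07%), and otherwise 0. Without the 4 libraries, 2 assembly factors (4.26%), 1 mitochondrial ribosomal protein (1.33%) and 2 genes of mitochondrial transcription (6.45%) were lower in deprived females, against 1.93% of all genes, and 1 regulator (5.88%) was higher, against 2.28%. In the mean contrast of that fit 4 assembly factors (8.51%), 3 mitochondrial ribosomal proteins (4%) and 1 outside subunit or carrier (4.35%) were lower, against 2.93% of all genes. There 3 regulators (17.6%) and 1 gene of mitochondrial transcription (3.23%) were higher, against 4.06% of all genes. Each of these counts is of 1 to 4 genes. The smallest p among assembly factors in the mean contrast was that of Ndufaf5, with 304 ± 44 in deprived males, 256 ± 19 in watered males, 330 ± 38 in deprived females and 286 ± 25 in watered females (SD, change 0.22, limma, adjusted p = 0.0890).

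Between watered males and watered females, 8 of the 23 carriers and outside subunits were higher (34.8%, against 15.9% of all genes) and 2 lower (8.7%, against 14.5%). Cycs, which encodes cytochrome c, averaged 6715 ± 428 in watered males and 4658 ± 684 in watered females (SD, n = 6 each), with a log2 difference of 0.54 (limma, adjusted p = 1.3e-05). Etfdh, which feeds electrons from fatty acid oxidation to ubiquinone, averaged 5034 ± 257 in watered males and 3973 ± 105 in watered females, and Pdss1, which starts the side chain of ubiquinone, 505 ± 41 in watered males and 318 ± 38 in watered females. These genes were higher in males by more than any called subunit. Cyc1 and Ndufab1, subunits that the naming rule leaves out, were not called in either sex contrast. Cyc1 averaged 7226 ± 327 in watered males and 7224 ± 547 in watered females.

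Of the 47 assembly factors, 9 were higher and 1 lower in watered males (19.1% and 2.13%, against 15.9% and 14.5% of all genes), and 19 higher and 0 lower in deprived males (40.4% higher, against 17.5%, and 0% lower, against 15.6%). Acad9, needed for complex I assembly, and Cox15, needed for the heme of complex IV, differed by 0.39 and 0.47 in watered mice (limma, adjusted p = 1e-05 each). Of the genes of mitochondrial transcription and RNA processing, 5 of 31 were higher and 2 lower in watered males (16.1% and 6.45%, the first near the share of all genes), and 14 higher and 0 lower in deprived males (45.2% higher). Lrpprc, which keeps mitochondrial mRNAs stable, averaged 3098 ± 340 in deprived males and 2598 ± 107 in deprived females, and 3266 ± 153 in watered males and 2645 ± 202 in watered females. Tfam, which packs and transcribes mitochondrial DNA, was called in deprived mice alone, at 1097 ± 85 in males and 963 ± 119 in females (difference 0.19, limma, adjusted p = 0.0245), and the contrast of the responses was not called.

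Among the 17 regulators, 1 was higher and 3 lower in watered males (5.88% and 17.6%, against 15.9% and 14.5% of all genes). Prkaa2, a catalytic subunit of AMP-activated kinase, was the higher one, at 3591 ± 160 in watered males and 2625 ± 134 in watered females. Gabpb1, a subunit of the ETS factor NRF2/GABP, averaged 323 ± 15 in watered males and 538 ± 52 in watered females, and Ppargc1a, the coactivator PGC-1alpha, 1782 ± 82 in watered males and 2048 ± 179 in watered females (difference -0.20, limma, adjusted p = 0.0457). Esrra and Nrf1 were not called in any contrast with all libraries. Mitochondrial ribosomal proteins gave 3 higher and 2 lower of 75 in watered males (4% and 2.67%, both below all genes), and 19 higher and 0 lower in deprived males (25.3% higher, against 17.5% of all genes). Cytosolic ribosomal proteins, whose transcripts are short, gave 2 higher and 1 lower of 81 in watered males with all libraries (2.47% and 1.23%). Without the 4 they gave 3 higher (3.7%, against 22.1% of all genes) and 38 lower (46.9%, against 20%).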

How the data were processed

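Poly A-selected kidney RNA was sequenced, and the authors deposited 1 table of normalized counts (a signal on the count scale) for 19399 genes in 24 libraries. Per the submitters' processing notes, Trim Galore, featureCounts of Subread, DESeq2 and mm10 were used. The sources used here name no aligner and no annotation release. Values were whole reads divided by a factor per library: the reads came out whole within 0.01 read for 100.0% of values, and totals were 14411843 to 29398960. Each gene in the table had at least 100 reads in all. P-values measure the spread between mice.

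The test was limma 3.58.1 (R 4.3.3) on log2(value + 1), with 4 group means, an intensity trend and robust variances. Genes needed 10 or more in 5 libraries, which kept 17592 and left out 1807. P-values were adjusted by Benjamini-Hochberg over all 17592, and below 0.05 a gene was called. Log2 changes understate those of low genes. Fold changes run deprived over watered and male over female. The members and lists were chosen with earlier results of these data known. Names and coordinates came from GENCODE M21 on GRCm38, and lengths from the principal annotated transcript in place of all exons. The genes named were the mitochondrial members, the nuclear members with the smallest p in each complex, every called member, isoform pairs and the highest and lowest per kb. edgeR 4.0.16 and DESeq2 1.42.0 on the recovered reads, other scalings, filters, pseudocounts, covariates and left-out libraries were tried as alternatives. The test was also run on simulated counts with a fixed spread and no libraries that stand apart. That run cannot tell how libraries that stand apart affect the calls.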

Additional observations from a re-analysis of the deposited data

Results flagged for a closer look

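For 53 of the quantities reported, the highest or lowest library of a group was tested against the rest of its group by Dixon's ratio, and 48 of 212 groups (22.6%) were flagged, where chance flags about 1 in 20. Of these, 40 fell in the 4 libraries in which the unnamed gene was high.

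Deprived male 7 was the highest of its group for Atp5b (78687), Atp5g2 (4157), Cox6b1 (11098), Cox7a2l (3446), Cox7b (7900), Ndufa10 (7510), Ndufb2 (623), Ndufb3 (3039), Ndufb9 (5527), Ndufv1 (9541), Ndufv3 (4169), Uqcr10 (7113), Uqcrfs1 (12702), Uqcrh (7088) and Uqcrq (8926), and for the nuclear members' share of reads (2.78%). Deprived male 6 was the highest for mt-Co1 (781159) and for the mitochondrial share of reads (10.4%), and the lowest for Ndufs1 (5375).

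Deprived female 1 was the highest of its group for Atp5g3 (14104), Cox4i1 (20218), Cox6b1 (5800), Cox7a2l (2735), mt-Nd1 (211546), mt-Nd6 (45876), Ndufa4 (7917), Ndufb3 (2011), Ndufb9 (1761), Uqcrb (4054), Uqcrfs1 (8321) and Uqcrh (4516), and for the nuclear share of reads (2.58%). Watered female 6 was the highest for Cox6a1 (17129), mt-Atp6 (3300), mt-Cytb (432783), mt-Nd2 (192564), mt-Nd4 (149128), mt-Nd6 (53066) and Ndufb2 (359), and the lowest for Sdha (19605).

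The other 8 flags lay outside these libraries. Watered male 6 was the lowest of its group for Atp5g3 (10783), Cox7a2 (2996), Cox7b (3199), Cox8a (6030) and Uqcr10 (2449), and the highest for mt-Cytb (384634) and mt-Nd4 (127762). Watered male 5 was the highest for Cox6b2 (144).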

How the results depend on the processing

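Counts of called members by limma, over 38 alternatives, were 0 with edgeR and DESeq2 for every deprivation contrast. Leaving out the 4 libraries gave 4 in females, 6 in the mean of both sexes, 25 between watered mice and 36 between deprived mice. Weights per library gave 3, 2, 19 and 29, and the proximal tubule covariate 4 in females, 78 and 81 between the sexes. Scaling to nuclear genes gave 19 and 5, the unnamed gene as a covariate 13 between watered mice, and deprived female 5 counted as watered 10 between deprived mice. The cause of these moves was not tested. Where the share of all genes is not given beside a count here, that count cannot be read as particular to the members.

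With the proximal tubule covariate, the medians of nuclear and mitochondrial members were -0.32 and -0.38 in females, 1.58 and 0.39 between watered and 1.98 and 0.66 between deprived mice. With nuclear scaling the mitochondrial medians were -0.11 and 0.13 between the sexes. That covariate also reversed the sign of single members between watered mice: Atp5g1 1.66, Atp5s 0.81, Atp5sl 0.29, Cox4i1 1.56, Cox5a 1.39, Cox6a1 1.97, Cox6b1 1.82, Cox6b2 0.89, Cox7a1 1.48, Cox7a2l 1.17, Cox7b 1.64, Cox8a 1.65, Ndufa4l2 0.41, Ndufb2 1.46, Ndufb9 2.99, Ndufs1 -0.079, Sdha -0.58, Uqcrb 1.92, Uqcrh 1.48, mt-Nd3 2.51, mt-Nd4 2.03, mt-Nd4l -2.34 and mt-Nd5 -1.60. Between deprived mice it reversed Cox4i1 (1.92), Cox6b2 (1.45), Cox7a1 (1.86), Ndufs1 (-0.15), Sdha (-0.70), mt-Nd4l (-2.70) and mt-Nd5 (-1.86). Nuclear scaling reversed Uqcrc2 (-0.12 between watered and -0.077 between deprived mice), Atp5a1 (-0.11) and Atp5b (-0.047), the last both between deprived mice, and leaving out the 4 libraries reversed Atp5g1 (-0.19) there.

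Leaving out 1 library at a time, the count stayed at 0 in the 4 deprivation contrasts and ran from 3 to 11 between watered and from 8 to 24 between deprived mice. The mitochondrial median of the male minus female response ran from 0.087, without deprived female 4, to 0.41, without deprived female 1. Replicate numbers were shared between groups, and with the number as a block 15 members were called between watered mice and 16 between deprived mice, and 0 for deprivation. Deviations of same-numbered libraries had a median correlation of 0.03 over 33 pairs, 7 of them over 0.1. For differently numbered libraries it was 0.005 over 182 pairs, 24 of them over 0.1. The numbers were those of the titles, whereas deprived females 3, 4 and 5 carry the codes FD4, FD5 and FD6. Whether the mice were paired was thus not settled. Leaving out the 4 libraries and deprived female 4 together, chosen after the data were seen, gave 7 members in females and 33 between deprived mice. Of the values of named genes under the alternatives, 11415 stayed on their side of the threshold, 634 of these with the opposite sign, 132 passed it newly, 136 no longer passed, and 35 that were called in at least 1 of the fits reversed. Small counts limit Cox8b, Cox6a2 and mt-Atp8.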
